A study of Mus musculus with 8 samples.

Results

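The nuclear genes for the machinery of oxidative phosphorylation were followed in cells of newborn and late fetal mice sorted as Epcr+Lin-Sca-1+Kit+, a gate that enriches for hematopoietic stem cells (HSCs). Members were chosen by symbol alone: names that begin with Nduf, Uqcr, Cox4i, Cox5, Cox6, Cox7, Cox8, Atp5 or Sdh followed by a, b, c or d, and Cyc1 and Cycs, with predicted genes and pseudogenes left out. 99 of the 32285 counted genes met the rule. They comprised 36 genes of complex I, 4 of complex II, 9 of complex III, cytochrome c, 20 of complex IV, 17 of complex V and 12 assembly factors that the prefixes Nduf and Sdh take in. Ndufa4 and its relative Ndufa4l2 were counted with complex IV.

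Complexes I to IV pass electrons from NADH and succinate to oxygen, all but complex II pump protons across the inner mitochondrial membrane, and complex V, the ATP synthase, uses the returning protons to make ATP. Some core subunits are encoded in mitochondrial DNA, while the genes described here are nuclear and their products are imported. HSCs are known for low reliance on oxidative phosphorylation at rest, and several complex IV subunits have sister genes that are used in particular tissues.

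Cells came from 6 gene expression libraries of 3′ tags. 3 of them came from 7 wild-type mice at 2 days after birth (P2) that were merged, called the pool, with 1 library each for marrow, liver and spleen. 1 library held wild-type cells at embryonic day 19 (E19); its title names bone marrow and its tissue field fetal liver, so it is called E19 here. The last 2, tubes 1 and 2, held mixed bone marrow and spleen cells of 2 P2 pups of the genotype Tppp3CreER LSLTdTomato that were given tamoxifen at P0, so that tdTomato marks cells in which the Tppp3-driven Cre was active around birth, and their progeny. Tube 1 was loaded with 145 sorted tdTomato+ cells of pup 1 and 5500 tdTomato- cells of pup 2, and tube 2 with 5156 tdTomato- cells of pup 1 and 180 tdTomato+ cells of pup 2. Hashtags, antibody-borne barcodes, mark the pup and the tissue of each cell. The pool, E19 and the pups carry the labels of batches 1, 2 and 3, so age, genotype, treatment, batch and depth cannot be told apart between them.

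After filtering, 2417 to 9708 cells were kept per library, 34381 in all, with medians of 6244 to 8000 UMIs per cell in the pool and E19 and of 19937 and 20315 in tubes 1 and 2. 17703 cells in 9 of 47 clusters were called HSC-like from markers such as Mecom, Hlf and Procr. They made up 6.01% of cells in pool liver, 27.5% in pool spleen, 40.9% in pool marrow, 68.4% in tube 2, 86.9% in E19 and 96.5% in tube 1, so the gate held other cell classes as well. Different clusters held the HSC-like cells of different libraries: clusters 1 and 4 in the pool, clusters 0, 2 and 3 in E19 and tube 1, and clusters 7 and 20 in tube 2. Cluster 4 raised 13 of 20 HSC-like markers, and also 6 of 10 lymphoid-primed and 7 of 12 myeloid progenitor markers. Libraries shared at most 34 barcodes.

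Erythroid-like cells gave more of their UMIs to the 99 genes than HSC-like cells in all 5 libraries with at least 20 erythroid-like cells, and neutrophil-like cells gave the least of the named classes. In HSC-like cells the members held 2.33% of UMIs in pool marrow, 2.12% in pool liver and 2.51% in pool spleen. The share was 1.89% in E19, 1.69% in tube 1 and 1.51% in tube 2. The exact 95% binomial intervals of these shares do not overlap, the widest running from 2.10% to 2.13% in pool liver, but they cover counting error only, and each tissue or age is 1 library with no replicate check. In the cells with at least 5000 UMIs (1832 of 2474, 293 of 320, 1705 of 2260, 5947 of 8432, 2508 of 2563 and 1605 of 1654 in the same order), each thinned to 5000, the shares were 2.30%, 2.03%, 2.49%, 1.89%, 1.60% and 1.44%, and the ranking was the same.

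Erythroid-like cells held 2.85% in pool marrow, 3.06% in pool liver, 3.41% in pool spleen, 3.13% in E19 and 2.39% in tube 2. Myeloid progenitor-like cells came close to them, above them in pool marrow at 2.93% and below them in pool spleen at 3.26%. Megakaryocyte-like cells lay between the HSC-like and erythroid-like cells of their own library, at 2.41%, 2.41% and 2.76% in pool marrow, liver and spleen; their 1 cluster also raised 8 of 14 erythroid and 10 of 20 HSC-like markers. Neutrophil-like cells of tube 2 held 0.772% of UMIs in members. Their cytosolic ribosome genes were low as well, at 4.05% of UMIs against 17.1% in HSC-like cells of tube 2. At clustering resolution 2, with cells named anew, neutrophil-like and HSC-like cells could be fitted with edgeR. There 81 of 94 members had a positive log2 fold change, with a median of 0.41 against -0.13 over all genes. None of these members was called, where 823 of 13822 genes were called higher and 455 lower.

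**Figure D1:**
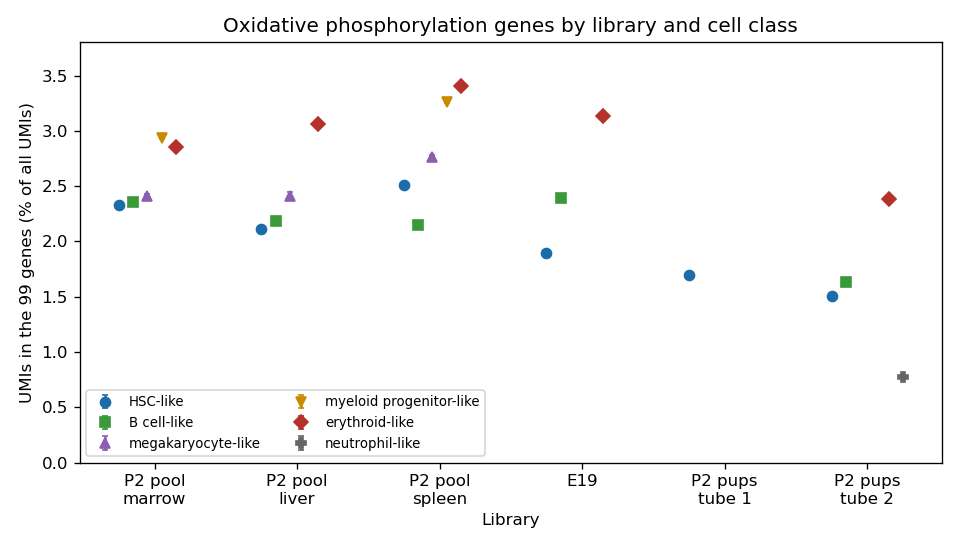
Percent of UMIs in the 99 genes (vertical axis) in each library (horizontal axis) for 6 cell classes; bars are exact 95% binomial intervals, mostly smaller than the symbols. Erythroid-like cells (red diamonds, 2.39% to 3.41%) lie above the HSC-like cells (blue circles, 1.51% to 2.51%) of the same library.

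Complexes I, III, IV and V each ranked the libraries in one order in HSC-like cells, pool spleen first and tube 2 last. Complex V held 0.789% of UMIs in pool spleen against 0.477% in tube 2, complex IV 0.698% against 0.374%, complex I 0.659% against 0.422% and complex III 0.251% against 0.140%. Complex II, succinate dehydrogenase, which also belongs to the tricarboxylic acid cycle, was different: its share was 0.0487% in tube 1, 0.0455% in tube 2, 0.0433% in pool marrow, 0.0405% in pool spleen and 0.0373% in E19. Sdhb, its iron-sulphur subunit, stood at 131 CPM in pool marrow, 117 in pool liver, 112 in pool spleen, 95.5 in E19, 147 in tube 1 and 131 in tube 2. Sdha, the flavoprotein that oxidises succinate, lay between 112 and 133 CPM in all 6 libraries. Of the 95 members with at least 5 CPM over all kept cells, 89 were higher in HSC-like cells of pool spleen than in those of E19, with a median log2 ratio of 0.39, while E19 and tube 1 split 51 to 44.

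Single members showed which genes carried these levels; CPM here are 3′ tag counts with no correction for gene length, so they are compared between libraries and not between genes. Cox4i1, the common form of complex IV subunit 4, stood at 878, 732 and 702 CPM in HSC-like cells of pool marrow, liver and spleen, and at 544 in E19, 542 in tube 1 and 495 in tube 2. Uqcr11, a small complex III subunit, was at 407 CPM in pool spleen and 255 in pool marrow, against 153 in tube 1 and 123 in tube 2. Cycs, cytochrome c, was at 176, 147 and 147 CPM in the pool tissues, 90.9 in E19, 114 in tube 1 and 80.2 in tube 2. Atp5g2, one of 3 genes for the ring subunit of ATP synthase, varied little, between 590 and 739 CPM. Ndufb8 and Ndufb9 of complex I and the assembly factors Ndufaf2 and Ndufaf4 were each highest in a pool library, at 336, 350, 114 and 76.1 CPM.

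HSC-like cells called in cycle expressed nearly the whole set at a higher level than those called G1. Cells were called S or G2/M from lists of phase genes that hold no member, after thinning to 5000 UMIs, and UMIs were summed per source: the pool, E19 and the tdTomato- cells of pups 1 and 2. HSC-like cells under 5000 UMIs got no phase and were left out: 1224 in the pool, 2485 in E19, 1 in pup 1 and 13 in pup 2. Members held 2.11% of UMIs in 535 non-cycling and 2.47% in 3295 cycling cells of the pool. The shares were 1.70% and 2.07% in E19, 1.31% and 1.60% in pup 1 and 1.39% and 1.75% in pup 2. The cycling sum was the higher in each of the 4 sources.

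With edgeR, 86 of the 94 members that passed the filter on low counts were called higher and 1 lower in cycling cells, where 28.2% of all 14360 genes tested were called higher and 25.3% lower. The median log2 fold change of the members was 0.46, against -0.02 over all genes tested, and 74 members had a higher CPM in every source, as did 19.4% of all genes tested. The median and the count called higher were 0.45 and 34 of 36 in complex I, 0.49 and 4 of 4 in complex II, 0.57 and 8 of 9 in complex III, 0.49 and 12 of 15 in complex IV, 0.49 and 17 of 17 in complex V and 0.29 and 10 of 12 among the assembly factors. Scaling by total UMIs in place of TMM moved the median of all genes by more than 0.1, to -0.20, and then 74 members (17.2% of genes) were called higher and 3 lower with a median of 0.27.

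Cycs, which shuttles electrons from complex III to complex IV, had a log2 fold change of 1.15 ± 0.07 (SE, adjusted p = 1.77e-08). It rose from 97.2 to 179 CPM in the pool, from 67.05 to 119 in E19, from 47.02 to 91.7 in pup 1 and from 53.9 to 125 in pup 2. The 4 cycling values did not all exceed the 4 non-cycling ones, because pup 1 in cycle lay below the pool out of cycle, so the contrast is within sources. In complex III, Uqcrq rose by 0.86, Cyc1, a haem-bearing subunit, by 0.83 and Uqcr10 by 0.77 on the log2 scale. In complex IV, Cox5a rose by 0.87, Ndufa4 by 0.78, Cox7a2 by 0.64 and Cox8a by 0.55. In complex V, 2 of the 3 ring genes stood out: Atp5g1 rose by 0.81 and Atp5g3 by 0.63, while Atp5g2 rose by 0.46. Ndufab1, the acyl carrier protein of complex I, rose by 0.75 and Ndufb7 by 0.63. The adjusted p of these named members was at most 4.91e-07.

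Cox7a2l, which helps join complexes III and IV into supercomplexes, was the only member called lower, with a log2 fold change of -0.14 ± 0.05 (adjusted p = 0.0217). Its CPM was 375 out of cycle and 298 in cycle in the pool, 418 and 361 in E19, 413 and 329 in pup 1 and 396 and 288 in pup 2, so it was lower in all 4 sources. That call was lost without pup 1 (adjusted p = 0.114) or without pup 2 (0.212) and in cells matched on total UMIs (0.968). Uqcrh, the hinge protein of complex III, did not pass the test, with a log2 fold change of 0.08 (adjusted p = 0.112).

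Cycling cells also held more UMIs per cell, with medians of 9050 against 5872 in the pool, 8260 against 5993 in E19, 28865 against 17108 in pup 1 and 23940 against 13867.5 in pup 2. When cells were matched on total UMIs within each source, 57 of 93 members were called higher, where 17.2% of 11818 genes were, with a median of 0.21. The matched shares were 2.11% and 2.24% in the pool, 1.69% and 2.07% in E19, 1.35% and 1.45% in pup 1 and 1.46% and 1.53% in pup 2, so the difference stayed at full size in E19 and was smaller in the P2 sources. Whether E19 differed from the P2 sources in this was not tested. Without the source term, the fit called 9 members higher, where 8.72% of genes were. The HSC-like markers summed to less in cycling cells of each source, from 5756 to 2864 CPM in the pool, 8176 to 5724 in E19, 8319 to 5561 in pup 1 and 7932 to 5034 in pup 2. Myeloid progenitor markers summed to 1212 CPM out of cycle and 2434 in cycle in the pool; the part of both in the result was not tested.

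**Figure D2:**
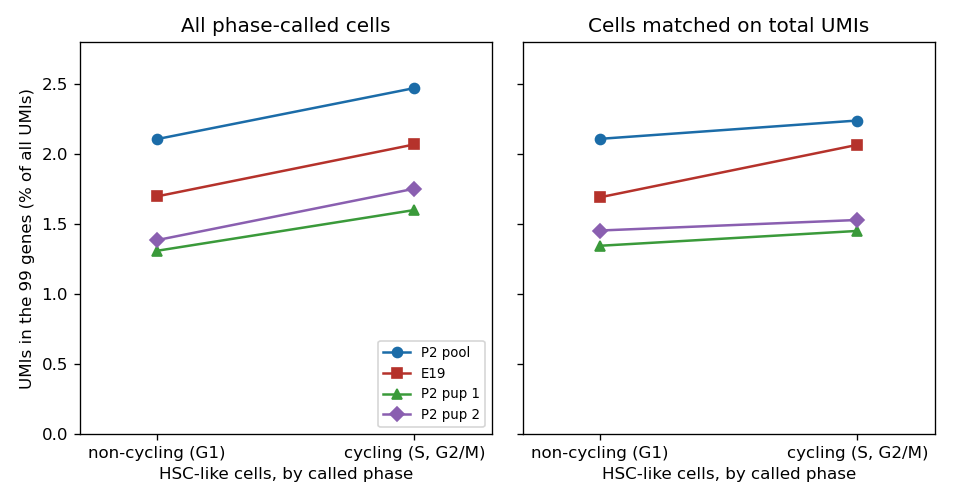
Percent of UMIs in the 99 genes (vertical axis) in HSC-like cells called G1 or called S or G2/M (horizontal axis), 1 line per source, for all phase-called cells (left) and for cells matched on total UMIs (right). All lines rise on the left, and on the right the E19 line keeps its slope (1.69% to 2.07%) while the other 3 are flatter.

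The member share also went with the total UMIs of a cell among non-cycling HSC-like cells of P2 sources but not of E19. In G1 cells of the pool it went from 1.96% in the lowest quartile of total UMIs to 2.23% in the highest, in those of pup 1 from 1.16% to 1.40% and in those of pup 2 from 1.23% to 1.53%. In E19 the 4 quartiles held 1.71%, 1.70%, 1.70% and 1.69%. Over all HSC-like cells the share went from 1.98% to 2.62% in the pool, from 1.80% to 2.01% in E19, from 1.29% to 1.73% in pup 1 and from 1.31% to 1.90% in pup 2. These are descriptions of cells within a source, with no test. The G1 cells all have at least 5000 UMIs, since only such cells were given a phase.

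**Figure D3:**
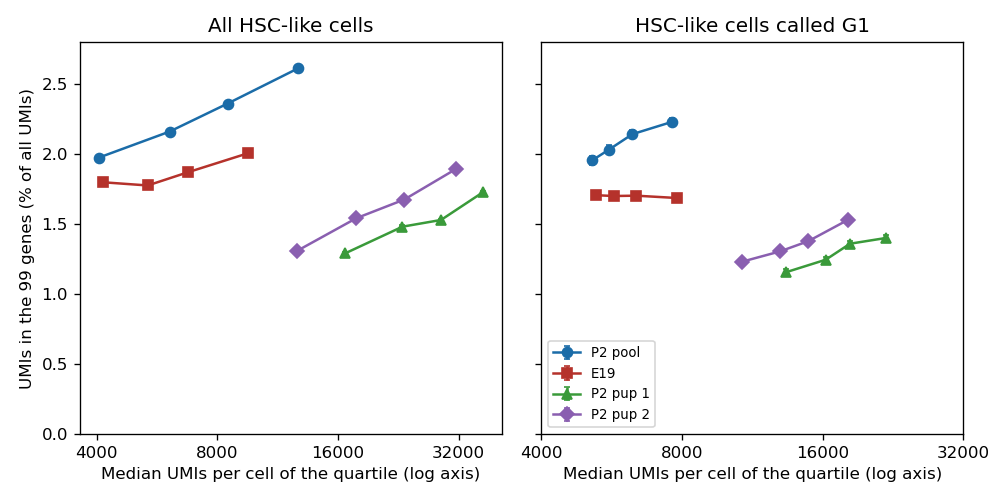
Percent of UMIs in the 99 genes (vertical axis) against the median UMIs per cell of each quartile (horizontal log axis) for all HSC-like cells (left) and those called G1 (right), 1 line per source; bars are exact 95% binomial intervals. On the right the E19 line is flat, from 1.71% to 1.69%, and the other 3 lines rise.

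The lists around the pathway depended on the scaling in cycling cells, so each is given with TMM and then with total UMIs. Of 17 genes of the tricarboxylic acid cycle, 14 and then 7 were called higher and none lower, among them Mdh2 (0.61), Fh1 (0.74) and Idh2 (0.52), given as log2 fold changes with TMM. Of 78 mitochondrial ribosome genes, 77 were called higher with TMM, and 64 higher and 1 lower with total UMIs. Other assembly factors numbered 20 higher and 1 lower of 31, then 7 and 3. Biogenesis regulators numbered 10 higher and 1 lower of 15, then 4 and 1, with Tfam (0.46) and Nrf1 (0.44) higher and Mycn (-0.65) lower with TMM. Glycolysis was divided, with 8 of 15 higher, including Pgam1 (0.85), and 2 lower, Aldoc (-1.28) and Ldhb (-0.44), then 7 and 4. Hypoxia targets had 2 of 15 higher and 4 lower, then 1 and 8. The mitochondrially encoded subunits had 11 of 13 called higher and 2 lower with TMM (median 0.17), and 4 higher and 4 lower with total UMIs (median -0.01). Their summed level was 26199 CPM out of cycle and 24282 in cycle in the pool, 27092 and 25360 in E19, 16444 and 16440 in pup 1 and 16981 and 16700 in pup 2. Cytosolic ribosome genes were called higher in 73 of 80 with TMM and split 19 higher to 18 lower with total UMIs.

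Promoters of the members were searched on both strands for the motifs of 2 kinds of factor known at mitochondrial genes. These were NRF1 (GCGCA and GCGC with 1 base of any kind between them) and the ETS family (CCGGAAG). RefSeq promoters of GRCm38.p6, from 250 bases before to 50 after the start, were held for 80 of the 99 members. The NRF1 letters were in 21 of them (26.25%), against 5.19% of 27025 genes, and the ETS letters in 22 (27.5%), against 9.93%. Either was in 38 members (47.5%) and in 14.0% of genes. The 27025 genes are all those with a promoter held, and not only the 14360 tested in cycling cells. Whether the motifs went with the rise in cycling cells was not tested. Below, 250 bases upstream of the start are shown 5′ to 3′ on the minus strand for a member with both motifs (Cox6a1, chr5:115348959-115349208), 1 with the ETS letters (Cox6b1, chr7:30626115-30626364) and the member with the largest rise in cycling cells, Cycs (chr6:50566570-50566819), which had neither in this window; capitals mark the motif matches, which do not overlap each other.
Cox6a1: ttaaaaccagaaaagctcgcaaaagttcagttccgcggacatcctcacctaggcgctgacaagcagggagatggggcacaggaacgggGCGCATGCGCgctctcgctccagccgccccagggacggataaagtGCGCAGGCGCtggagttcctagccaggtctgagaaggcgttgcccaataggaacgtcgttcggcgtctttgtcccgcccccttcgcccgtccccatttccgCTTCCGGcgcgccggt
Cox6b1: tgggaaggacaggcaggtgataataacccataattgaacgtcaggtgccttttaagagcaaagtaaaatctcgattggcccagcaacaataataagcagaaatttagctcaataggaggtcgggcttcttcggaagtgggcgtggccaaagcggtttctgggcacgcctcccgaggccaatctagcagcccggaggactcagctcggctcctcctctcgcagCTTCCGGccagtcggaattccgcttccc
Cycs: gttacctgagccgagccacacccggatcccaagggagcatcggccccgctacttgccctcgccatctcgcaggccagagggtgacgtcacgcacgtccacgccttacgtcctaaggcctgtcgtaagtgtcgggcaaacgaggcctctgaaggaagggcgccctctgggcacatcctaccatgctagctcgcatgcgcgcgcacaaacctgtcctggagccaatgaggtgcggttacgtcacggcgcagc
A match shows the letters and not a bound site, and a missing match says only that these letters are not in the window.

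Erythroid-like cells differed from HSC-like cells more than cycling cells differed from non-cycling ones, and in the same upward direction for most members. Too few erythroid-like cells of the pups carried a hashtag call for a test by pup, so sums by library of the pool, E19 and tube 2 were tested, a choice made after the data were seen. Members held 2.39% of UMIs in HSC-like and 3.23% in erythroid-like cells of the pool, 1.89% and 3.13% in E19 and 1.51% and 2.39% in tube 2. 86 of 95 members were called higher and 1 lower, where 30.2% of 15292 genes were called higher and 36.3% lower, and the members' median log2 fold change was 1.08 against -0.13 over all genes. With total UMIs as the scale the median of all genes moved to -0.60, and 74 members (17.5% of genes) were then called higher and 6 lower, with a median of 0.61. 80 members had a higher CPM in all 3 sources, as did 24.0% of genes tested.

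All 9 members of complex III and all 4 of complex II were called higher, with medians of 1.38 and 0.81, and so were 35 of 36 in complex I (1.09), 16 of 17 in complex V (1.08), 13 of 16 in complex IV (1.21) and 8 of 12 assembly factors (0.58). Cox6a1, the common form of complex IV subunit 6a, rose by 1.75 ± 0.14 on the log2 scale (adjusted p = 2.57e-05), from 188 to 419 CPM in the pool, 188 to 497 in E19 and 202 to 494 in tube 2; the erythroid-like values all lay above the HSC-like ones. Uqcr11 rose by 1.78, with 322 and 689 CPM in the pool, 227 and 611 in E19 and 123 and 330 in tube 2. In complex I, Ndufa5 rose by 1.72, Ndufb10 by 1.59, Ndufv1, which binds NADH and its flavin, by 1.55 and Ndufs6 by 1.44. Sdhd, a membrane anchor of complex II, rose by 1.51, Atp5o, in the stalk of the ATP synthase, by 1.38, Atp5k by 1.43 and the assembly factor Ndufaf4 by 1.29. The adjusted p of these members was at most 8.12e-05.

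The ring genes of the ATP synthase differed from one another. Atp5g1 rose by 1.78 (511 to 985 CPM in the pool, 311 to 908 in E19, 255 to 691 in tube 2) and Atp5g3 by 1.27, whereas Atp5g2 had a log2 fold change of 0.11 (adjusted p = 0.49) and lower CPM in erythroid-like cells, at 564 against 705, 442 against 590 and 560 against 708. Cox7a2l did not pass the test (-0.33, adjusted p = 0.0571), although its CPM was 318 in HSC-like and 211 in erythroid-like cells of the pool, 409 and 201 in E19 and 350 and 204 in tube 2.

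Erythroid-like cells held medians of 14521, 16696 and 40231.5 UMIs in the pool, E19 and tube 2, against 7140.5, 5956 and 21892 in HSC-like cells. In cells matched on total UMIs 79 of 93 members were still called higher, where 30.2% of 11344 genes were, with a median of 0.89. Without the source term the fit called 56 members higher, where 22.9% of genes were. Genes of cycling cells were higher as well, 38 of 42 of the S list and 45 of 52 of the G2/M list, and their part in the result was not tested. Beside the members, 15 of 17 genes of the tricarboxylic acid cycle were called higher, Cs (1.51) and Idh3a (1.61) among them, and Idh2 (-1.05) lower. With total UMIs 11 were higher and 2 lower. Of 78 mitochondrial ribosome genes 77 were called higher, and with total UMIs 58 higher and 1 lower. Of 13 mitochondrially encoded subunits 10 were called higher, and with total UMIs 5. Of 15 glycolysis genes 4 were higher and 7 lower, then 2 and 7 with total UMIs: Pfkm (1.86) and Hk1 (1.71) rose and Ldhb (-5.59), Pkm (-4.31) and Hk2 (-3.17) fell with TMM. Other assembly factors, with the copper chaperone Cox17 at 2.59, had 18 of 31 higher and 1 lower, then 6 and 7. Biogenesis regulators had 6 of 15 higher and 3 lower, then 0 and 5. Hypoxia targets had 5 of 16 higher and 6 lower, then 3 and 8. The hypoxia list includes the member Ndufa4l2, which was among the 5 called higher with TMM.

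**Figure D4:**
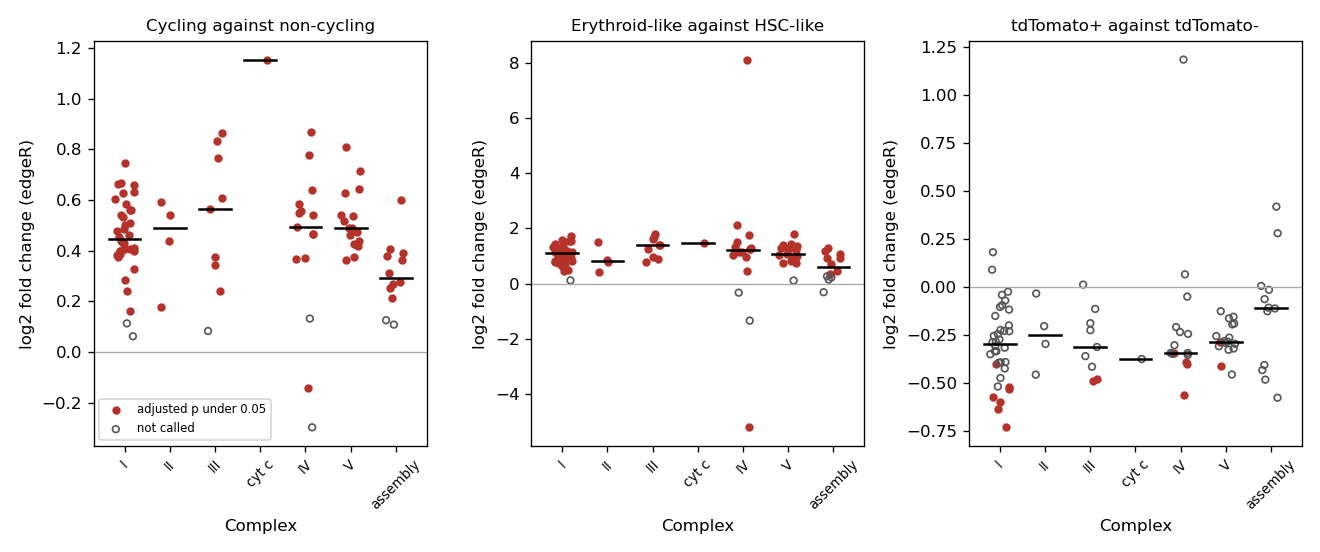
edgeR log2 fold change (vertical axis) of each tested member by complex (horizontal axis) for 3 comparisons; filled red points have an adjusted p under 0.05, open points do not, and black bars are medians. Medians are positive in every complex for cycling cells (0.29 to 1.15) and erythroid-like cells (0.58 to 1.47) and negative for tdTomato+ cells (-0.38 to -0.11); the red point near -5 is Cox4i2.

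Cox4i2 stood apart from the other members: it was high in HSC-like cells and nearly lacking in erythroid-like and B cell-like cells. It encodes an alternative form of complex IV subunit 4 known from the lung and from low oxygen, and lies on chromosome 2 from 152754173 to 152765037 of mm10 (GENCODE vM21, plus strand, protein coding). HSC-like cells held 9.21 CPM in pool marrow, 9.35 in pool liver, 11.4 in pool spleen, 22.01 in E19, 33.7 in tube 1 and 21.9 in tube 2. Erythroid-like cells held 0.130, 0.0832 and 0.216 CPM in the pool tissues, 0.662 in E19 and 0.183 in tube 2. The log2 fold change between erythroid-like and HSC-like cells was -5.20 ± 0.34 (adjusted p = 1.19e-05), the only member called lower, and -3.60 with doublets kept. Erythroid-like cells held from 1 to 9 Cox4i2 UMIs per library, so their level is known only roughly.

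Between B cell-like and HSC-like cells the log2 fold change of Cox4i2 was -4.49 ± 0.49 (adjusted p = 0.00046) and -3.31 with doublets kept, with 10.1 and 0.388 CPM in the pool, 22.01 and 1.69 in E19 and 23.5 and 0 in pup 1. Myeloid progenitor-like cells lay in between, at 3.10 CPM in pool marrow and 5.62 in pool spleen. After thinning to 5000 UMIs, 9.20% of 13890 HSC-like cells held a Cox4i2 UMI (16.9% unthinned), against 2.74% of myeloid progenitor-like cells, 1.20% of megakaryocyte-like cells, 0.331% of B cell-like cells and 0.131% of 3818 erythroid-like cells, whose median depth before thinning was 16031.5 UMIs against 9044 in HSC-like cells. By library, the thinned HSC-like value was 4.69% in pool marrow, 3.75% in pool liver and 5.69% in pool spleen. It was 10.3% in E19, 13.1% in tube 1 and 9.10% in tube 2. Only pool libraries held at least 20 myeloid progenitor-like or megakaryocyte-like cells, so for those classes the pool values are the nearer comparison. Cluster 11, an unnamed cluster led by Dntt and Ebf1, which mark early lymphoid cells, held 16.8 CPM in E19 and 16.2 in tube 1 but 2.02 CPM or less in the pool tissues. Over the same HSC-like cells Cox4i1 differed much less between libraries, from 495 to 878 CPM, and ran the other way, highest in the pool.

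Cox4i2 was lower in bone marrow than in spleen in each of the 3 sources, without passing the test over all genes. Its CPM was 9.21 in marrow and 11.4 in spleen of the pool, 10.0 and 24.7 in pup 1 and 24.7 and 46.4 in pup 2. The log2 fold change was -0.80 ± 0.15 with an adjusted p of 0.35. The call depended on the setting: the adjusted p was 8.06e-08 without the pool (-1.01), 0.00393 without pup 1 (-0.71), 0.0179 without the filter on low counts, 0.0475 at clustering resolution 2 and 0.0431 without clusters 4 and 38. Without the pool or without pup 1 only 2 pairs of sums were left, so those p-values lean on a spread shared over all genes. Pup 1 marrow rested on 87 cells.

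In cycling cells Cox4i2 was called higher, with a log2 fold change of 0.56 ± 0.10 (adjusted p = 0.00031) and CPM of 20.1 and 25.4 in E19, 19.4 and 24.3 in pup 1 and 23.0 and 35.4 in pup 2, whereas the pool held 10.5 out of cycle and 9.94 in cycle. With G2/M cells alone against G1 it did not pass (0.27, adjusted p = 0.125), nor without the source term (0.325). Among E19 clusters it was 18.6 CPM in cluster 0, 21.8 in cluster 2, 32.9 in cluster 3 and 11.1 in cluster 32, which held 158 cells.

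Other complex IV genes that have a widely used sister gene also had uneven levels. Members and mitochondrial genes were not used to cluster the cells. Cox6b2, known from testis, did the opposite of Cox4i2 in erythroid-like cells: it rose by 2.11 ± 0.14 on the log2 scale (adjusted p = 1.37e-05), from 50.6 to 208 CPM in the pool, 70.3 to 191 in E19 and 53.4 to 145 in tube 2. Its UMIs were seen in 62.3% of thinned erythroid-like and 24.6% of thinned HSC-like cells. In B cell-like cells it fell by 2.49 on the log2 scale (adjusted p = 0.00157), to 9.93, 14.3 and 1.53 CPM in the pool, E19 and pup 1. Megakaryocyte-like cells held 86.6, 73.7 and 98.02 CPM in pool marrow, liver and spleen, between the HSC-like and erythroid-like levels.

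Ndufa4l2, a hypoxia target related to Ndufa4, was found in erythroid-like cells of E19 and hardly in those of P2. Its level in erythroid-like cells was 141 CPM in E19 (exact 95% Poisson interval 134 to 147), against 2.34 in pool marrow, 1.497 in pool liver, 0.252 in pool spleen and 0.917 in tube 2. 42.7% of thinned erythroid-like cells of E19 held a UMI, against 0.0551% to 0.847% in the other 4 libraries and 0.166% of HSC-like cells. The HSC-like cells of E19 held 0.593 CPM. Most E19 erythroid-like cells fell in cluster 10, which came to 95.7% from E19. E19 is 1 library of its own batch, so age and batch cannot be told apart, and the fitted log2 fold change of 8.11 over the 3 sources rests on E19 and on near-zero HSC-like counts. Of other cells, 26 endothelial and stromal-like cells of tube 2 held 203 CPM.

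Cox6a2, the heart and muscle form of subunit 6a, was highest in cluster 34, an unnamed cluster led by Siglech, a marker of plasmacytoid dendritic cells, with 263, 476 and 665 CPM in pool marrow, liver and spleen. Cluster 11 held 56.0, 151 and 163 CPM in those tissues and 23.03 in E19. HSC-like cells of the pool held 9.76, 27.8 and 8.11 CPM, against 0.180 in E19, 0.148 in tube 1 and 0.209 in tube 2. Within the pool these UMIs lay in cluster 4, with 15.4, 46.1 and 13.7 CPM, and less in cluster 1, with 0.540, 3.44 and 0.781 CPM. Cox6a1, the sister gene, lay between 161 and 216 CPM in HSC-like cells of the pool. Cox7a1, another heart and muscle form, stayed at 2.91 CPM or less in HSC-like cells, and Cox7b2, Cox8b and Cox8c had 38, 1 and 3 UMIs in all kept cells.

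**Figure D5:**
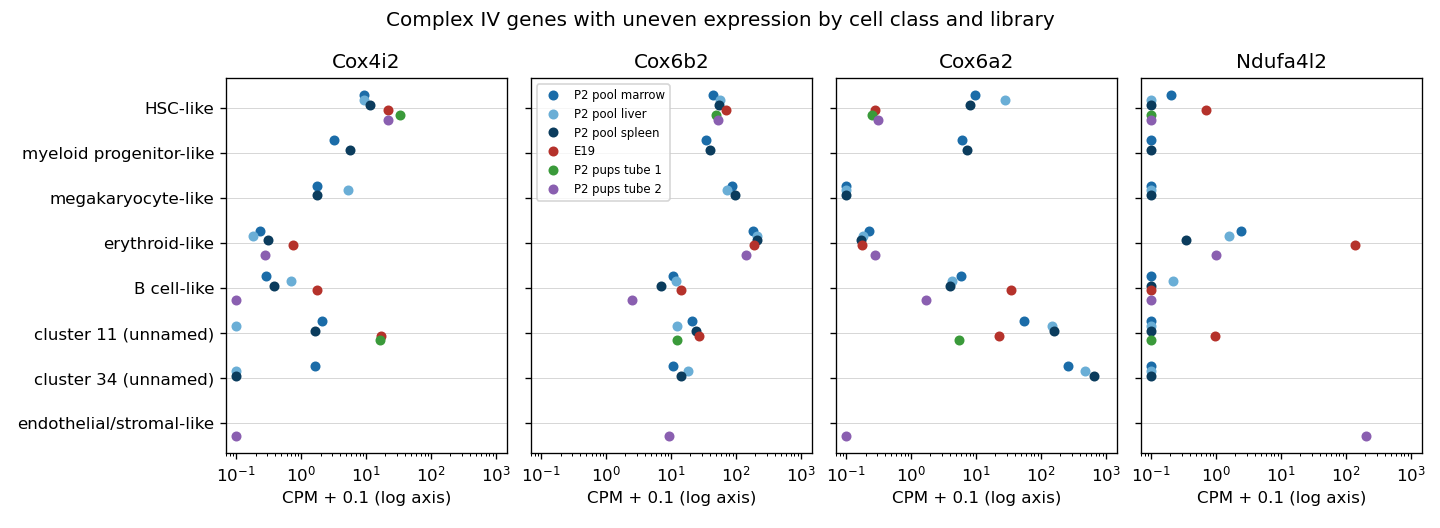
CPM + 0.1 (horizontal log axis) of 4 complex IV genes in 8 cell groups (vertical axis), 1 point per library with at least 20 cells of the group. Cox4i2 is highest in HSC-like cells (9.21 to 33.7 CPM), Cox6b2 in erythroid-like cells, Cox6a2 in clusters 34 and 11, and Ndufa4l2 in E19 erythroid-like and tube 2 endothelial and stromal-like cells.

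Between bone marrow and spleen HSC-like cells no member passed the test over all genes, and the share of UMIs in members was lower in marrow in each source. Marrow and spleen held 2.33% and 2.51% in the pool, 1.38% and 1.57% in pup 1 and 1.61% and 1.80% in pup 2, differences of -0.181, -0.188 and -0.189 percentage points. edgeR called 3 of 14006 genes higher in marrow (0.0214%) and none lower (0.00%), with 748 at an unadjusted p under 0.05, and DESeq2 called 2, neither a member. Of the 94 members tested, 37 were lower and none higher at an unadjusted p under 0.05, where 2.73% of genes tested were lower. That count was 78 without the pool, 23 without pup 1, 24 without pup 2, 65 at resolution 2, 14 with doublets kept, 6 in all kept cells and 1 without the source term. Over all genes and both directions, the count was 3196 of 14150 without the pool and 2575 of 13728 at resolution 2. Without pup 1 it was 512 of 14222 and without pup 2, 480 of 14220. With doublets kept it was 601 of 14273, in all kept cells 1016 of 14949 and without the source term 60 of 14006. The median log2 fold change was -0.16 (all genes -0.00), with -0.24 without the pool, -0.08 without pup 1 or with doublets kept and -0.25 at resolution 2, and 40 members were lower in every source, as were 7.78% of genes tested.

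The sources differed in which members were lower. In pup 1, 86 of 94 members had lower CPM in marrow and in pup 2, 89, but in the pool 43 did and 51 had higher CPM. Atp5b, the catalytic subunit of ATP synthase, was at 681 CPM in marrow and 559 in spleen of the pool, 442 and 528 in pup 1 and 550 and 633 in pup 2. Cox7b and Cox6b1 of complex IV were lower in marrow in all 3 sources, at 284 and 417, 210 and 247, and 276 and 325 CPM for Cox7b. Without the pool, 59 of 94 members were called lower, where 5.78% of 14150 genes were. Without pup 1 or without pup 2, 5 were, where 0.176% and 0.218% of genes were. Each of these fits had only 2 pairs of sums, so its calls lean on a spread shared over all genes. Within the pool the myeloid progenitor markers summed to 2601 CPM in marrow and 1530 in spleen, with 713 and 733 in pup 1 and 830 and 728 in pup 2; their part in the result was not tested. All lists around the pathway had 0 genes called.

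With marrow and spleen cells summed together, tdTomato+ HSC-like cells held a smaller share of UMIs in members than tdTomato- cells of the same pup. The shares were 1.34% against 1.56% in pup 1 and 1.48% against 1.68% in pup 2. edgeR called 15 of 94 members lower and none higher, where 1.94% of 13555 genes were called lower and 0.871% higher. The median log2 fold change was -0.29 (all genes -0.02), and 69 members were lower in both pups, as were 24.5% of genes tested. Cox6c of complex IV fell by 0.56 ± 0.12 on the log2 scale (adjusted p = 0.000412), with 189 CPM in positive and 228 in negative cells of pup 1 and 163 and 255 in pup 2. Ndufab1 fell by 0.60, at 121 and 184 CPM in pup 1 and 149 and 208 in pup 2. For both genes the 2 positive values lay below the 2 negative ones. The others called were 6 further complex I genes (Ndufv1, Ndufv2, Ndufa1, Ndufa2, Ndufa10 and Ndufb8), Ndufa4, Cox8a and Cox6a1 of complex IV, Uqcrq and Uqcr11 of complex III, and Atp5d and Atp5g2 of complex V, with log2 fold changes from -0.29 to -0.73. Cox4i2 did not pass (-0.34, adjusted p = 0.762), with 19.4 and 23.5 CPM in pup 1 and 27.4 and 33.0 in pup 2.

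The positive and negative cells of a pup were in different tubes, and HSC-like cells of tube 1 had the higher CPM in 82 of 95 members. Paired by tube in place of pup, the share of positive minus negative cells was -0.340 percentage points in tube 1 and -0.0753 in tube 2, against -0.212 and -0.203 within pups 1 and 2. With the tube as the block, a fit added after the data were seen, 3 members were called lower, where 1.12% of genes were: Ndufab1 (adjusted p = 0.00553), Cox6c (0.019) and Ndufv2 (0.0417). Pup and tube cannot both be terms with 4 sums.

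The calls by pup rest on 29 positive cells of pup 1 and 39 of pup 2. With only 1 pair of sums per pup, their p-values lean on a spread shared over all genes. Positive cells held fewer UMIs, with medians of 13101 against 26296 and 18123 against 20635. No member was called with DESeq2, without the source term, in G1 cells alone or in cells matched on total UMIs, where 0.391% (DESeq2), 0.0448% (G1 cells) and 0.0823% (matched cells) of genes were called lower. Without the source term 47 of 13555 genes were called lower. With matched cells the median was -0.07, and positive cells of pup 1 held 1.37% against 1.27% in negative ones, the opposite order, and those of pup 2 1.48% against 1.66%. Genes of cycling cells were lower in positive cells as well: 46 of 52 genes of the G2/M list were called lower, and the list summed to 4816 against 10746 CPM in pup 1 and 6182 against 9487 in pup 2. In G1 cells alone the members' median was -0.19. Negative HSC-like cells numbered 87 from marrow and 852 from spleen in pup 1, and 1340 and 675 in pup 2. The tissue mix of the positive cells is not given here, and the fit had no tissue term. The part of tissue, cycling and depth in the difference was not tested beyond these values.

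B cell-like cells differed from HSC-like cells in few members besides Cox4i2 and Cox6b2. Members held 2.21% of UMIs against 2.39% in the pool, 2.39% against 1.89% in E19 and 1.60% (42 cells) against 1.56% in pup 1, so the order was not the same in the 3 sources. The pool sums merge 3 tissues, and only its spleen had the lower order. B cell-like cells held 2.35% against 2.33% in pool marrow, 2.18% against 2.12% in pool liver and 2.15% against 2.51% in pool spleen. 4 of 95 members were called higher and 2 lower, where 7.29% of 14559 genes were called higher and 13.6% lower. The assembly factors Ndufaf3 and Sdhaf2, which attaches the flavin to Sdha, had log2 fold changes of 1.06 and 0.84, Ndufs5 of complex I 0.99 and Cox6a1 0.60, with adjusted p from 0.0123 to 0.0421. Ndufs5 was at 222 CPM against 158 in the pool, 329 against 113 in E19 and 136 against 92.6 in pup 1. Without the pool 1 member was called higher, where 2.76% of genes were, and without E19 8 were, where 12.2% of genes were. With total UMIs 3 members were called higher and 3 lower, where 898 and 2309 of 14559 genes were, and the members' median of 0.18 became 0.06. Among 13 mitochondrially encoded subunits 7 were called higher (4 with total UMIs), mt-Nd2 (0.72) and mt-Atp8 (0.80) among them, and 4 of 15 glycolysis genes were lower, led by Ldhb (-4.16) and Hk1 (-1.71). The B cell-like and erythroid-like comparisons share the HSC-like sums of the pool and E19.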

How the data were processed

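The deposited files hold UMI counts per gene and cell barcode, made by the authors from a 10x Chromium 3′ kit per the labels; Cell Ranger 7.0.0 and the build mm10 are recorded per the submitters' processing notes, and versions per the file headers were 7.0.0 (pool), 7.1.0 (E19) and 8.0.1 (tubes). Cells with at least 1000 genes, at least 2000 UMIs and at most 10% mitochondrial UMIs were kept, and doublets were marked with a Scrublet-type score at 0.8% per 1000 barcodes. Cells were clustered with scanpy 1.11.5 and leidenalg 0.10.2 (2000 variable genes, 30 components, 15 neighbours, resolution 1) without members or mitochondrial genes, and clusters were named from fixed marker lists. Hashtag counts assigned pup and tissue. Raw counts were summed per source and tested with edgeR 4.0.16 (quasi-likelihood, TMM, Benjamini-Hochberg over all genes tested, threshold 0.05) in R 4.3.3, with the source as a block, and DESeq2 1.42.0 was an alternative; the fit was tested on simulated data. Sums of the same source come from the same mice or library, and their deviations correlated by 0.17 to 0.86; the value for the 2 pups with tdTomato is set by having only 2 pairs. Nothing says that the sums are separate cultures or litters, so p-values rest only on the spread between these sums. edgeR moderates that spread over all genes, so it is not the spread of each gene alone. With only 2 pairs of sums, a gene's own spread is hardly known, and the p-values lean on the shared spread. This holds for tdTomato and for marrow and spleen with a source left out. Genes were named by rule: Cox4i2, up to 12 called members per direction and comparison by smallest p, the 2 members with the highest CPM of each complex, sister genes with restricted expression, and up to 4 called genes per other list and direction. The members and lists were chosen with earlier results of these data known.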

Additional observations from a re-analysis of the deposited data

How the results depend on the processing

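Of the recomputed counts, medians and levels, 178 kept to their main value and 80 moved. Of the recomputed values of single members, 613 kept direction and side of the threshold, 153 lost a call, 5 gained one and 3 reversed. Matching on total UMIs, scaling by total UMIs, leaving out clusters 4 and 38, G1 cells alone, the tube as block and the tdTomato fits with a sum left out were chosen after seeing the data. Unless a value shows it, the cause of a change was not tested.

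In cycling cells, members called higher were 9 with no replicate block and 57 with matched UMIs, against 86. The single lower call became 0 with G2/M alone, without the filter, with no replicate block and with matched UMIs, and 3 with total UMIs. Leaving out a source gave 0 to 1. Over these settings the lower calls among all genes ran from 526 of 14360 (no replicate block) to 6020 of 14360 (total UMIs). The median of 0.46 was 0.27 with total UMIs, 0.39 at resolution 2 and 0.21 with matched UMIs.

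In erythroid-like cells, 56 were higher with no replicate block. Lower calls were 2 with DESeq2 size factors, the DESeq2 test or without clusters 4 and 38, 3 at resolution 2, 4 without the filter and 6 with total UMIs, and leaving out a source gave 1 to 2. Among all genes they ran from 4729 of 14904 (without the pool) to 7497 of 15292 (total UMIs) over these settings. The median was 0.61 with total UMIs and 0.89 with matched UMIs.

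In B cell-like cells, higher calls were 8 with DESeq2 size factors, the DESeq2 test or resolution 2, 2 with no replicate block and 14 without clusters 4 and 38, and leaving out a source gave 1 to 8 higher and 2 to 5 lower. Over all genes, higher calls were 1113 of 14559 with DESeq2 size factors, 1159 with the DESeq2 test and 1124 of 14551 at resolution 2. They were 774 of 14559 with no replicate block and 1147 of 14351 without clusters 4 and 38. Without the pool 388 of 14055 genes were higher and 643 lower. Without E19 they were 1789 and 2473 of 14684, and without pup 1, 1380 and 2022 of 15361. Between marrow and spleen, lower calls were 1 without the filter or without clusters 4 and 38, 5 at resolution 2 and 5 to 59 with a source left out. Among all genes they were 4 of 17168 without the filter, 1 of 13446 without clusters 4 and 38 and 35 of 13728 at resolution 2. With a source left out they were 818 of 14150 (pool), 25 of 14222 (pup 1) and 31 of 14220 (pup 2).

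For tdTomato, the 15 lower calls became 2 with all kept cells, where 250 of 14035 genes were called lower. They became 3 with total UMIs (171 of 13555 genes) or with the tube as replicate block (152 of 13555). They became 0 with DESeq2 (53 of 13555), with no replicate block (47 of 13555), in G1 cells (5 of 11153) and with matched UMIs (7 of 8506). The median was -0.27 with all kept cells, -0.30 with doublets kept, -0.21 with other hashtag calls, -0.27 with DESeq2 size factors, -0.21 with total UMIs, -0.28 with the DESeq2 test, -0.31 without the filter, -0.28 with no replicate block or with the tube as replicate block, -0.29 at 5% mitochondrial UMIs, -0.19 in G1 cells, -0.28 at resolution 2, -0.0725 with matched UMIs, -0.28 without clusters 4 and 38 and -0.41 to -0.17 with a sum left out. Cox4i2 reversed to 0.0128 with matched UMIs and ranged from -0.68 to 0.0142 with a sum left out and no replicate block, the latter without pup 2's negative cells, and Ndufa4 reversed to 0.0384 with matched UMIs.

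HSC-like shares with doublets kept were 2.35%, 2.14%, 2.53%, 1.86%, 1.68% and 1.52% in pool marrow, liver, spleen, E19 and tubes 1 and 2. Without mitochondrial, ribosomal and globin UMIs they were 3.16%, 2.84%, 3.53%, 2.65%, 2.10% and 1.85%. At 5% mitochondrial UMIs tubes 1 and 2 held 1.70% and 1.51%. Members under 5 CPM, Cox7a1, Cox7b2, Cox8b and Cox8c among them, are limited by depth.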
